A study of Homo sapiens with 18 samples.

Results

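Senescent and control IMR90 ER:RAS cells were compared by RNA sequencing after both had received IMP1088, an inhibitor of the N-myristoyltransferases NMT1 and NMT2. The comparison took 6 of the 18 libraries of the series, 3 from senescent cells and 3 from control cells, chosen by their labels, and covered every gene of the count table. IMR90 is a fibroblast line from human lung. ER:RAS is a fusion of the hormone-binding part of the oestrogen receptor with oncogenic RAS that 4-hydroxytamoxifen (4OHT) switches on. Cells carrying the fusion received 100 nM 4OHT, to give oncogene-induced senescence, or the solvent DMSO for 7 days, then 300 nM IMP1088 for 3 days, and RNA was collected on day 10. The other groups received DMSO or 1.5 µM DDD86481, another inhibitor of the same enzymes, in place of IMP1088, again with 3 libraries each. Both sides of the comparison therefore carried the fusion and the inhibitor, and they differed in 4OHT. The study reports that IMP1088 killed senescent cells selectively and through apoptosis. How far loss of cells entered the differences below was not tested. The cells were 1 line. The labels do not say whether replicates were separate cultures, while a legend of the study calls its replicates of these treatments independent experiments, and the p-values measure the spread between these libraries.

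Senescence is a lasting arrest of the cell cycle that follows stress or oncogene activation. Senescent fibroblasts are known for raised inhibitors of cyclin-dependent kinases, for a large secretion of cytokines, growth factors and proteases (the senescence-associated secretory phenotype, SASP), and for an enlarged secretory and lysosomal apparatus. N-myristoyltransferases attach the fatty acid myristate to proteins, among them the ARF GTPases that recruit the COPI coat to Golgi membranes, and this coat carries proteins back to the endoplasmic reticulum (ER).

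Levels are given as CPM, the counts of a gene scaled to a common library size by TMM. Differences are the log2 fold change of senescent over control cells ± an approximate standard error, taken from the test statistic. They were tested with edgeR's quasi-likelihood test at an adjusted p under 0.05. The 6 libraries held between 18328979 and 20546199 counts. A count of 0 allows up to 3 counts, which came to between 0.134 and 0.168 CPM in these libraries, and this floor covers counting error only, because reads carried no molecular identifiers. Where every library of a group lay at or under it, the fold is a lower bound. Replicates correlated at an r of log2 CPM between 0.992 and 0.993 within each group and between 0.841 and 0.850 across the groups. Of the DMSO libraries used beside them, control replicate 3 stood apart, at an r of 0.979 with control replicate 1. Counts of list members whose difference from DMSO passed are also given without it. Counts with DMSO alone include it. HRAS, a part of the fusion and also an endogenous gene, stood at 3555, 3838 and 3966 CPM in the control libraries and 5063, 4906 and 5172 CPM in the senescent ones (log2 fold change 0.41 ± 0.09, adjusted p = 0.000432). ESR1, the oestrogen receptor gene, stood at 1999, 2098 and 2177 against 2759, 2658 and 2929.8 CPM (0.41 ± 0.13, adjusted p = 0.00744). Both groups thus held the fusion's parts at high levels, and the test cannot tell the fusion from the endogenous genes.

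Most genes differed between senescent and control cells when both received IMP1088. Of 14341 genes tested, 10626 (74.1%) passed the threshold, with 5197 higher in senescent cells (36.2%) and 5429 lower (37.9%). The 3 senescent and the 3 control libraries did not overlap for 11600 genes (80.9%). The difference was over 2-fold, among genes past the threshold, for 5308 genes, and 3747 passed a test against a 2-fold change itself. With DMSO in place of IMP1088, 9827 genes passed the threshold (68.5%), 4663 higher (32.5%) and 5164 lower (36%), and 4580 of them differed over 2-fold. The 3797 genes higher with both were 73.1% of those higher with IMP1088 and 81.4% of those higher with DMSO. The 4102 genes lower with both were 75.6% and 79.4%. These comparisons shared no library, and their log2 fold changes correlated across the 14341 genes at a Pearson r of 0.895, where genes are not independent replicates. The difference between the 2 log2 fold changes passed the threshold for 3761 genes (26.2%), of which 1731 lay above 0 with IMP1088 relative to DMSO (12.1%) and 2030 below (14.2%). Without control DMSO replicate 3, 3215 genes passed. Without control IMP1088 replicate 1 the split turned over, with 1414 genes above 0 and 1324 below. It also turned over without control IMP1088 replicate 2 (1656 and 1570) or 3 (1808 and 1703) and without control DMSO replicate 2 (1845 and 1647). With only the groups compared it was 1798 above and 1660 below, and with upper quartile scaling 2061 and 1820. Which side held more genes thus depended on the libraries and the scaling.

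**Figure D1:**
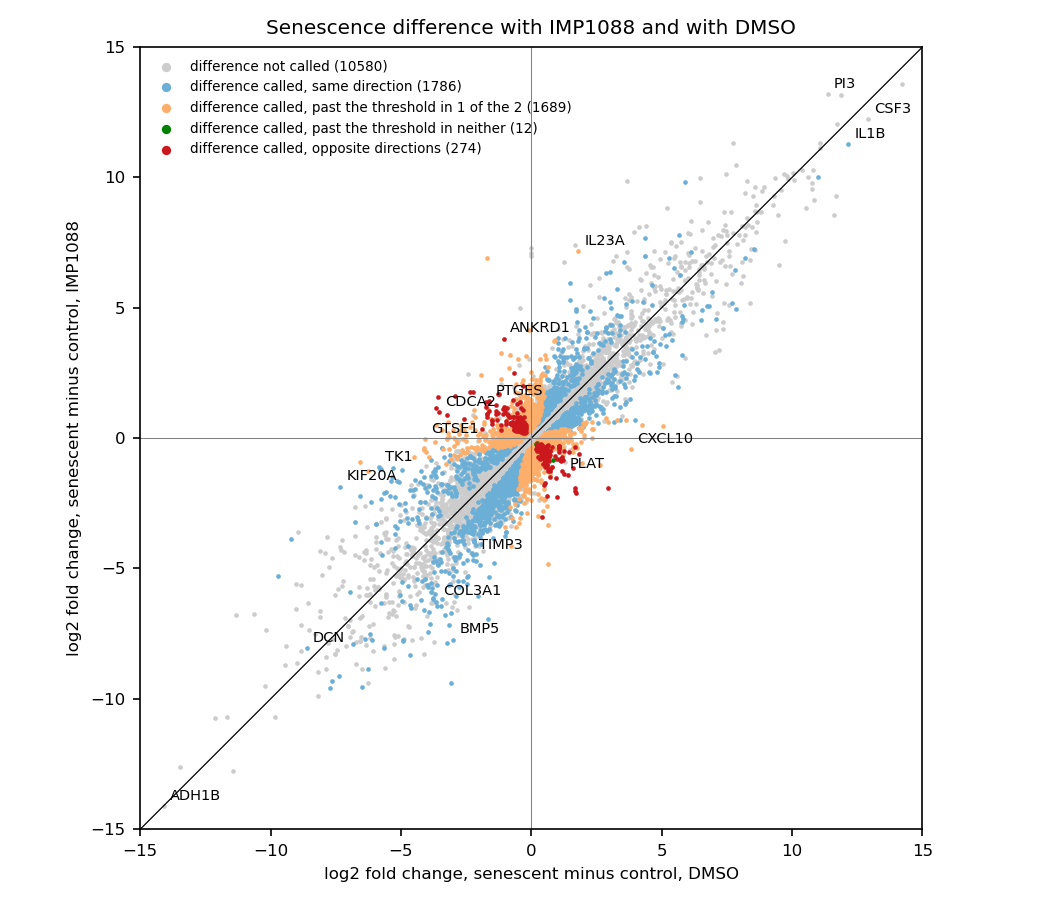
Log2 fold change of senescent over control cells with DMSO (x axis) and with IMP1088 (y axis) for the 14341 genes tested, coloured by whether the difference between the 2 passed the threshold. Points lie along the line of equal change (r = 0.895), and 274 genes in red changed in opposite directions; for genes at the floor in 1 group the plotted value is the fitted one.

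The genes were grouped by hand into lists of known roles. Each is described by how many of its members passed the threshold in each direction and by its median log2 fold change, to be read against 36.2% higher, 37.9% lower and a median of -0.03 over all genes tested. In the plot of list medians, interleukins and genes of sterol synthesis lay farthest to the right among lists with over 10 tested members, and collagens, genes of elastic fibres and fibroblast markers farthest to the left.

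**Figure D2:**
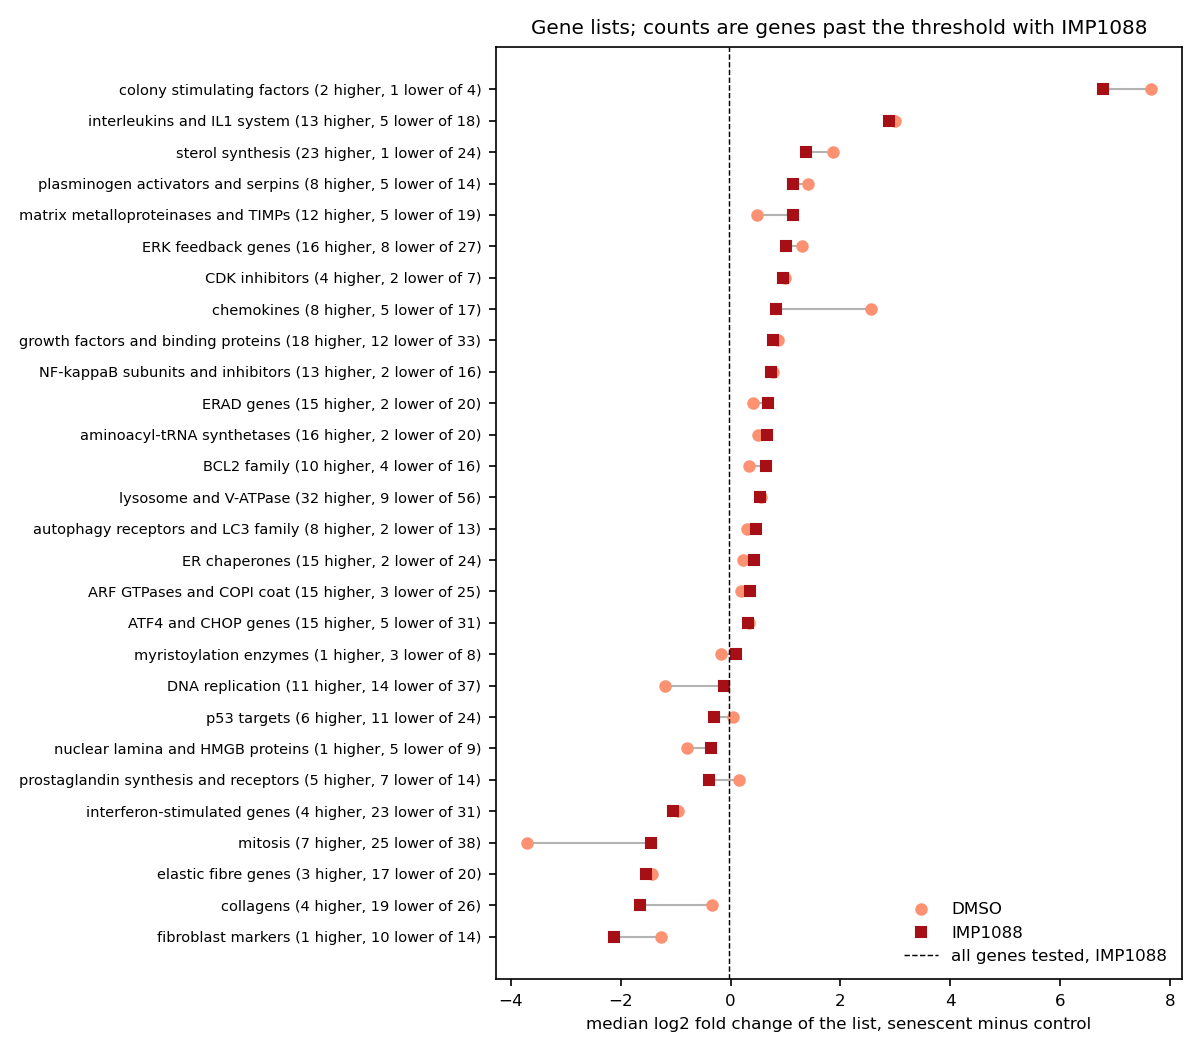
Median log2 fold change of senescent over control cells for each gene list (x axis) with IMP1088 (squares) and DMSO (circles), with the number of tested members past the threshold with IMP1088 beside each name. The medians of mitosis (-1.45 with IMP1088, -3.71 with DMSO), DNA replication (-0.12 and -1.19) and collagens (-1.66 and -0.33) differ most between the 2 treatments among lists with over 20 tested members, and that of chemokines (17 tested, 0.83 and 2.56) also differs.

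The genes with the largest differences were nearly silent on 1 side. Among those higher in senescent cells, SERPINA9, a serine protease inhibitor, was at 0 CPM in each control library and at 80.03, 83.00 and 72.1 CPM in the senescent ones, at least 547-fold higher. PI3, which encodes the elastase inhibitor elafin, was at 0.0502, 0 and 0.146 against 679, 635 and 640.4 CPM, at least 4547-fold higher. SERPINB4, a near copy of SERPINB3 with which it can share reads, was at 0 against 59.3, 61.6 and 56.2 CPM, at least 412-fold higher. The macrophage elastase gene MMP12 (at least 99.8-fold) and MRGPRX3, a receptor of the Mas-related family (at least 63.3-fold), were also without a count in the 3 control libraries. The genes of this paragraph were picked among genes whose groups did not overlap and with at least 5 CPM in 1 group. No overlap is thus not a result about them, nor about IL1B, CSF2, CSF3, CXCL12 and COL14A1 below, which the same rule picked. Of all genes tested, 80.9% had no overlap. On the other side, ADH1B, an alcohol dehydrogenase, was at 101, 134 and 109 CPM in control libraries and had no count in senescent ones, at least 697-fold lower. PTGIS, the prostacyclin synthase, was at 44.6, 46.99 and 43.5 CPM and had no count in senescent libraries, at least 274-fold lower. FMO2, a flavin monooxygenase, fell at least 245-fold, FGL2, a fibrinogen-like protein, at least 451-fold, TMEM176A at least 543-fold and the serotonin receptor gene HTR2B at least 37.1-fold. Senescent libraries with DMSO also held these genes at under 1 CPM, and the difference between the treatments passed the threshold for TMEM176A alone of these 6 (adjusted p = 0.0442), which was at 0.432, 0.623 and 0.44 CPM in senescent libraries with DMSO and 0, 0.168 and 0.168 with IMP1088. At levels this near the floor, a difference that did not pass does not show likeness.

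The cytokine core of the SASP was high in senescent cells that had received IMP1088. Of interleukins and the IL1 system, 13 of the 18 tested were higher and 5 lower, with a median of 2.89 (2.99 with DMSO). IL1B, an inflammatory cytokine (chromosome 2, from 113587328 to 113594393 on GRCh37), was at 2.11, 1.87 and 2.43 CPM in the control libraries and 5906, 5096 and 4945 CPM in the senescent ones (log2 fold change 11.28 ± 0.20, adjusted p = 5.26e-20). No control library came near a senescent one, although a rule that picked IL1B asked for groups without overlap. With DMSO the levels were 0.806, 1.65 and 1.99 against 6831, 6299.5 and 6786 CPM, and the difference between the log2 fold changes, IMP1088 minus DMSO, was -0.87 ± 0.25 (adjusted p = 0.0158), a call lost without control IMP1088 replicate 3 (adjusted p = 0.0580). IL1A, which as a membrane-bound cytokine acts at the top of the SASP cascade, was at 0.201, 0.401 and 1.07 CPM against 204, 227 and 196 CPM (8.54 ± 0.27, adjusted p = 1.86e-16), and the difference from DMSO did not pass (adjusted p = 0.217). IL6 was at 6.42, 10.2 and 15.7 CPM in control and 182, 233 and 198 CPM in senescent libraries (4.25 ± 0.31). Its log2 fold change exceeded that with DMSO by 1.38 ± 0.40 (adjusted p = 0.0146), where control libraries held 12.3, 22.6 and 35.1 CPM and senescent ones 144, 191 and 171. IL13RA2, a decoy receptor for IL13, was at 0.652, 0.846 and 0.534 against 33.5, 32.8 and 38.6 CPM (5.67 ± 0.17), and the senescent libraries stood above all controls. The 5 members that were lower were IL1R1 (-3.62), the receptor of IL1, IL7 (-1.68), IL15 (-1.65), IL6ST (-1.19), the shared receptor subunit of the IL6 family, and OSMR (-0.39).

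Chemokines moved in both directions. Of this list, 8 of the 17 tested were higher and 5 lower, with a median of 0.83 (2.56 with DMSO). CXCL8, which draws in neutrophils (chromosome 4, from 74606236 to 74609433 on GRCh37), was at 20.02, 32.02 and 46.8 CPM in control and 9179, 8729.7 and 9308 CPM in senescent libraries (8.10 ± 0.39, adjusted p = 1.6e-13), and its log2 fold change differed from that with DMSO by -0.10 ± 0.41 (adjusted p = 0.876). Other neutrophil attractants, named after their values were seen, rose with it, CXCL1 by 4.58, CXCL2 by 7.35, CXCL3 by 7.24 and CXCL5 by 10.01 on the log2 scale, although the near-identical CXCL1, CXCL2 and CXCL3 can share reads. CCL20, a ligand of CCR6, was at 0.251, 0.0445 and 0.291 against 168, 210.3 and 218 CPM (9.98 ± 0.34). In senescent libraries with DMSO it was at 35.3, 43.6 and 44.8 CPM, below all 3 senescent libraries with IMP1088. Control libraries with DMSO held 0, 0.0805 and 0.0995 CPM, at the floor, and the difference between the fold changes did not pass (adjusted p = 0.79). CXCL10, an interferon-inducible chemokine (chromosome 4, from 76942271 to 76944650 on GRCh37), did not pass with IMP1088, at 1.10, 0.757 and 1.65 against 0.368, 0.95 and 1.29 CPM (-0.43 ± 0.39, adjusted p = 0.331), and the groups overlapped. With DMSO it was at 1.73, 1.89 and 2.69 against 24.8, 33.8 and 30.3 CPM (3.83 ± 0.26), and the difference between the treatments was -4.26 ± 0.47 (adjusted p = 3.51e-06). CCL2, a monocyte attractant, was lower in senescent cells, at 48.8, 55.7 and 103 against 5.00, 11.4 and 9.02 CPM (-3.03 ± 0.42, adjusted p = 1.68e-06). CXCL12, the ligand of CXCR4, was at 108, 99.5 and 97.1 CPM in control libraries and at 0, 0.168 and 0 CPM in senescent ones, at least 616-fold lower.

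The colony stimulating factors CSF2 and CSF3, growth factors of granulocytes and macrophages, were at or under the floor in every control library. CSF2 was at 0, 0 and 0.0971 against 168, 159 and 154 CPM, at least 1119-fold higher in senescent cells. CSF3 was at 0.151, 0.0891 and 0.146 against 633, 634 and 658 CPM, at least 4478-fold higher. Senescent libraries with DMSO held 284, 242 and 259 CPM of CSF2 and 248, 258 and 299 CPM of CSF3. For neither did the difference between the treatments pass the threshold (adjusted p = 0.813 and 0.557). With control libraries at or under the floor, this does not show an equal rise. CSF1, the macrophage factor, was lower (-1.98). IL34, which binds the same receptor as CSF1, was at 8.33, 7.97 and 7.53 CPM in control and 0.0526, 0 and 0 CPM in senescent libraries, at least 48.3-fold lower, against 0.247, 0.187 and 0.275 CPM in senescent libraries with DMSO (adjusted p of the difference = 0.00565).

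**Figure D3:**
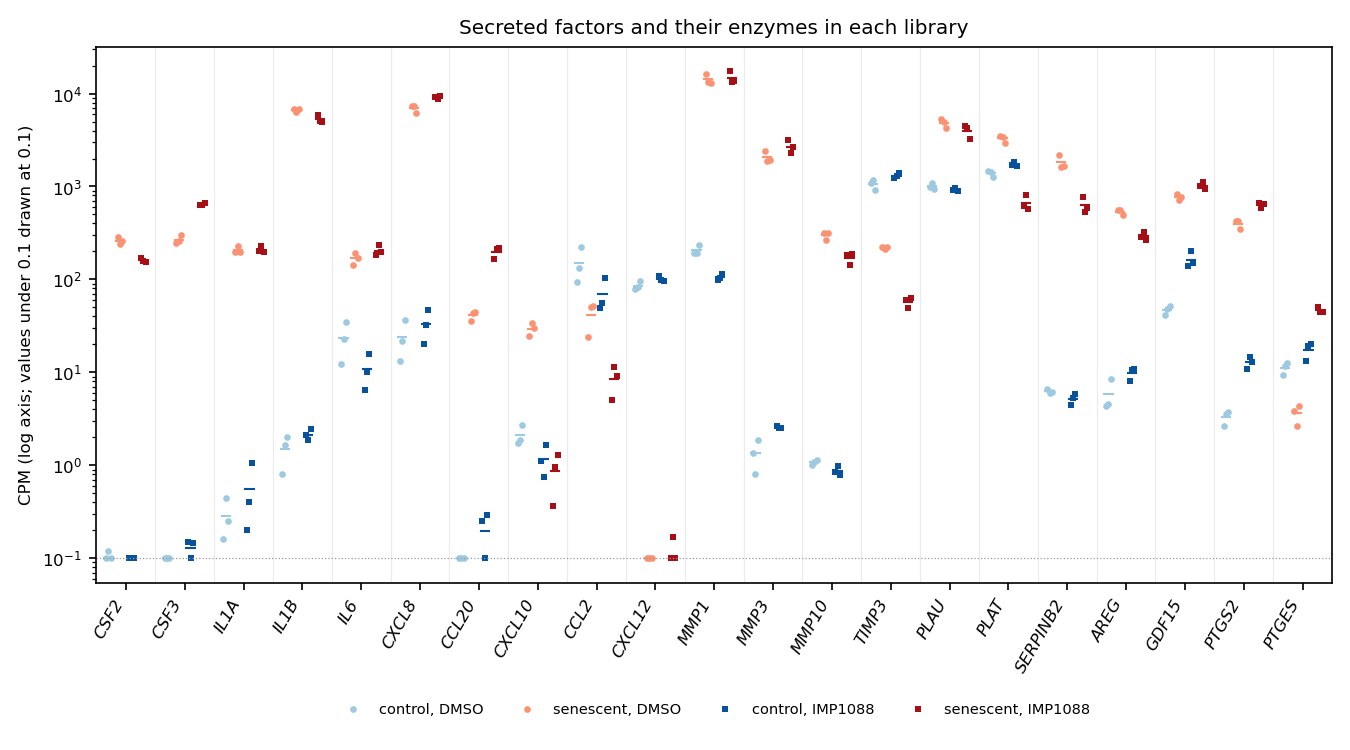
CPM on a log axis of secreted factors, proteases and prostaglandin enzymes in each of the 3 libraries of control and senescent cells with DMSO (circles) and with IMP1088 (squares), with short lines at the means. IL1B, CXCL8, CSF3 and MMP3 are high in senescent libraries with both treatments, CXCL10 is high in senescent libraries with DMSO and at 0.368 to 1.29 CPM with IMP1088, and PLAT and PTGES change direction between the treatments.

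Proteases and their inhibitors followed the same pattern of large rises with exceptions. Of matrix metalloproteinases and TIMPs, 12 of the 19 tested were higher and 5 lower. MMP1, an interstitial collagenase (chromosome 11, from 102660132 to 102668891 on GRCh37), was at 99.7, 104 and 113 against 17345, 13454 and 13663 CPM (7.13 ± 0.16, adjusted p = 1.67e-18), and its log2 fold change exceeded that with DMSO by 1.03 ± 0.17 (adjusted p = 0.000261), where control libraries held 192, 192 and 237 CPM. MMP3, a stromelysin, was at 2.66, 2.49 and 2.53 against 3151, 2269 and 2635 CPM (10.03 ± 0.24), and MMP10, another stromelysin, at 0.853, 0.98 and 0.777 against 181, 143 and 189.9 CPM (7.61 ± 0.17). All 3 were higher in every senescent library than in every control library. TIMP3, a matrix-bound inhibitor of metalloproteinases, was lower in senescent cells, at 1243, 1289.9 and 1397 against 59.6, 49.6 and 63.8 CPM (-4.50 ± 0.14). Senescent libraries with DMSO held 222, 215 and 225 CPM of TIMP3, and its difference between the treatments was -2.25 ± 0.18 (adjusted p = 2.88e-08). Of plasminogen activators and serpins, 8 of the 14 tested were higher and 5 lower. PLAU, the urokinase, was at 924, 965 and 893 against 4477, 4211 and 3238 CPM (2.10 ± 0.14), and SERPINB2, its inhibitor, at 4.41, 5.34 and 5.83 against 762, 532 and 587 CPM (6.91 ± 0.20). PLAT, the tissue plasminogen activator, was lower in senescent cells with IMP1088, at 1689, 1847 and 1655 against 609, 803 and 566 CPM (-1.39 ± 0.13, adjusted p = 8.19e-09). With DMSO it was higher, at 1485, 1415 and 1266 against 3469.6, 3423 and 2969.8 CPM (1.24 ± 0.13, adjusted p = 4.69e-08), and neither pair of groups overlapped.

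Because many SASP genes are known targets of AP-1, the FOS and JUN dimers, the letters TGANTCA were searched, with N as any base. This is wider than the usual AP-1 site, which has C or G in the place of N. The letters were searched on both strands of the 250 bases before the start of each gene in the RefSeq promoter table (GRCh38.p14), which matched 11104 of the 14341 genes tested. They occurred in 463 promoters (4.17%), and in 2 of 10 of metalloproteinases and TIMPs, 3 of 13 chemokines, 3 of 13 interleukins, 1 of 2 colony stimulating factors, 3 of 10 plasminogen activators and serpins, 1 of 25 growth factors, 1 of 12 prostaglandin genes and 0 of 14 NF-kappaB genes. The stretches around the match in 3 genes of these lists are shown, chosen after the matches were seen, with the match in capitals. MMP10 is at chr11:102780669-102780715 on the minus strand, CXCL8 at chr4:73740412-73740458 on the plus strand and IL1A at chr2:112784494-112784525 on the minus strand.
MMP10: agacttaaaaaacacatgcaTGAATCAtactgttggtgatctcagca
CXCL8: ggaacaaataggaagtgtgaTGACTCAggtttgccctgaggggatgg
IL1A: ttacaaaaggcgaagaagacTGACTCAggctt
A match describes the letters and is not a bound site, and that of MMP10 has A in the place of N, outside the usual site.

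Growth factors and their binding proteins split, and many differed from DMSO. Of this list, 18 of the 33 tested were higher and 12 lower, while the difference from DMSO passed above 0 for 7 and below 0 for 14, and above 0 for 5 and below for 14 without control DMSO replicate 3. INHBA, a subunit of activin A, was at 27.9, 33.2 and 30.8 against 2319, 2280.3 and 2329 CPM (6.24 ± 0.15; difference 0.52 ± 0.17, adjusted p = 0.0271, which did not pass in 5 of 12 fits without 1 library each). The EGF receptor ligand AREG was at 8.03, 10.5 and 10.8 against 286, 325 and 265 CPM (4.90 ± 0.27), which was -1.66 ± 0.36 relative to DMSO (adjusted p = 0.00222). EREG, a related ligand, was at 12.8, 15.5 and 16.8 against 305, 265 and 273 CPM (4.22 ± 0.15), which was -0.82 ± 0.19 relative to DMSO (adjusted p = 0.00406). Each of these 3 stood above all controls in every senescent library. GDF15, a stress-induced cytokine of the TGF-beta family, was at 138, 202 and 149.5 against 1016, 1107 and 938 CPM (2.65 ± 0.15). With DMSO its control level was 41.3, 48.5 and 52.05 and its senescent level 833, 716 and 774 CPM, so that the log2 fold change was larger there (difference -1.39 ± 0.20, adjusted p = 6.82e-05). IGFBP5, which binds insulin-like growth factors, was at 3676, 2969 and 3275 against 3404, 4423 and 4162 CPM (0.27 ± 0.15, adjusted p = 0.104), with overlapping groups. INHBE, the activin subunit beta E, was at 8.08, 6.24 and 8.21 against 30.7, 36.8 and 40.1 CPM (2.26 ± 0.31), and at 1.05, 0.845 and 1.09 against 0.0617, 0.809 and 0.44 CPM with DMSO (difference 3.43 ± 0.72, adjusted p = 0.00181). Both groups with IMP1088 thus stood above both groups with DMSO for INHBE. BMP5, a bone morphogenetic protein, was at 4.72, 4.68 and 6.31 against 0, 0.0559 and 0 CPM, at least 31.8-fold lower, and at 0.309, 0.311 and 0.44 CPM in senescent libraries with DMSO (adjusted p of the difference = 0.00309).

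Of prostaglandin genes, 5 of the 14 tested were higher and 7 lower, a share higher near that of all genes tested. PTGS2, the inducible cyclooxygenase, was at 10.99, 14.6 and 13.02 against 669, 588 and 641 CPM (5.62 ± 0.24), with a log2 fold change -1.29 ± 0.31 relative to DMSO (adjusted p = 0.00498). PTGES, which makes prostaglandin E2 from its product, was at 13.1, 19.4 and 20.3 against 51.1, 44.4 and 44.2 CPM with IMP1088 (1.40 ± 0.16, adjusted p = 8.78e-08). With DMSO it was at 9.47, 11.6 and 12.5 against 3.83, 2.68 and 4.34 CPM (-1.62 ± 0.19, adjusted p = 1.92e-07), a change in the opposite direction (difference 3.02 ± 0.24, adjusted p = 4.39e-08).

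Genes of NF-kappaB signalling, which drives much of the SASP, were mostly higher. Of subunits and inhibitors, 13 of the 16 tested were higher and 2 lower, with a median of 0.74 (0.77 with DMSO). NFKBIA, the inhibitor IkappaB alpha, was at 52.02, 49.6 and 70.1 against 121, 122 and 127 CPM (1.11 ± 0.20, adjusted p = 3.98e-05). TNFAIP3, the inhibitor A20, was at 31.3, 28.4 and 39.1 against 40.1, 43.1 and 54.4 CPM (0.48 ± 0.17, adjusted p = 0.0159), a call lost without control IMP1088 replicate 2 (adjusted p = 0.0742) or senescent IMP1088 replicate 3 (0.106). Of genes induced by ERK, the kinase downstream of RAS, some of which feed back on it, 16 of 27 were higher and 8 lower, against 20 higher and 2 lower with DMSO. The difference between the treatments passed below 0 for 13 of them and above 0 for 1 (13 and 1 without control DMSO replicate 3). DUSP6, an ERK phosphatase, was at 92.8, 122 and 94.6 against 610.0, 582 and 524 CPM (2.47 ± 0.12), and its difference from DMSO, -0.45 ± 0.16 (adjusted p = 0.0454), did not pass in 9 of 12 fits without 1 library each. SPRY4, an inhibitor of receptor tyrosine kinase signalling, was at 51.5, 53.1 and 53.8 against 135, 107 and 99.9 CPM (1.11 ± 0.12), and at 54.9, 52.1 and 45.8 against 291, 239 and 208 CPM with DMSO (difference -1.16 ± 0.17, adjusted p = 5.99e-05). ETV4, an ETS factor, was at 24.1, 21.9 and 19.3 against 57.8, 53.9 and 52.9 CPM (1.34 ± 0.13). For all 3 the senescent libraries stood above the control libraries. EGR1, an immediate early transcription factor, was lower in senescent cells, at 577, 780.4 and 503 against 202, 159 and 138 CPM (-1.90 ± 0.23, adjusted p = 3.55e-07), while with DMSO the groups overlapped at 219, 219 and 153 against 213, 134 and 154 CPM (difference -1.66 ± 0.32, adjusted p = 0.000896). HRAS and ESR1, the parts of the fusion, had a smaller log2 fold change with IMP1088 than with DMSO. The difference was -0.44 ± 0.13 for HRAS (adjusted p = 0.0181, and 0.0513 without control IMP1088 replicate 3) and -0.64 ± 0.18 for ESR1 (adjusted p = 0.0141).

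Genes of the cell cycle differed less between senescent and control cells with IMP1088 than with DMSO. Of inhibitors of cyclin-dependent kinases, 4 of the 7 tested were higher and 2 lower, with a median of 0.95 (1.00 with DMSO). CDKN1A, which encodes p21, was at 396, 311 and 325 against 1199.8, 1451 and 1308 CPM (1.94 ± 0.11, adjusted p = 3.24e-12). CDKN2A, the locus of p16 and ARF, was at 47.3, 54.2 and 55.4 against 102, 103 and 97.9 CPM (0.95 ± 0.14), and CDKN2B, which encodes p15, at 31.7, 28.3 and 27.3 against 103, 105 and 110.4 CPM (1.87 ± 0.12). The senescent libraries stood above the control libraries for each, while CDKN1B (-1.57) and CDKN1C (-1.62), which encode p27 and p57, were lower. The log2 fold change was smaller than with DMSO for CDKN1A (difference -0.56 ± 0.15, adjusted p = 0.0109, and 0.0560 without control IMP1088 replicate 1) and CDKN2B (-1.23 ± 0.16, adjusted p = 2.44e-05). CDKN2C, which encodes p18 and is itself expressed in cycling cells, was at 8.08, 8.82 and 8.60 against 6.95, 7.66 and 5.21 CPM with IMP1088 (-0.36 ± 0.18, adjusted p = 0.0694) and at 11.4, 12.6 and 16.5 against 0.803, 0.809 and 0.714 CPM with DMSO (difference 3.75 ± 0.30, adjusted p = 4.39e-08).

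Of genes of DNA replication, 11 of the 37 tested were higher and 14 lower, whereas with DMSO 2 were higher and 31 lower. The difference between the treatments passed above 0 for 28 of the 37 (29 without control DMSO replicate 3) and below 0 for 0. Of genes of mitosis, 7 of the 38 tested were higher and 25 lower, against 1 higher and 35 lower with DMSO, and the difference passed above 0 for 32 (31 without control DMSO replicate 3). RRM2, the small subunit of ribonucleotide reductase, did not pass with IMP1088, at 4.06, 5.12 and 5.29 against 5.79, 3.97 and 6.56 CPM (0.17 ± 0.17, adjusted p = 0.374), and the groups overlapped. With DMSO it was at 32.6, 33.5 and 35.98 against 5.37, 4.11 and 5.55 CPM (-2.76 ± 0.16, adjusted p = 4.95e-12), so that the senescent ranges overlapped between the treatments and every control library was lower with IMP1088. CCNB1, the mitotic cyclin B1, was at 8.28, 7.93 and 8.21 against 8.47, 9.78 and 10.2 CPM with IMP1088 (0.22 ± 0.13, adjusted p = 0.119) and at 29.5, 27.2 and 34.4 against 12.5, 9.96 and 11.5 CPM with DMSO (difference 1.64 ± 0.17, adjusted p = 1.53e-06).

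Other cell cycle genes were lower in senescent cells with IMP1088, by less than with DMSO. MCM2, part of the replicative helicase, was at 23.03, 21.4 and 22.7 against 11.5, 11.8 and 10.2 CPM (-1.001 ± 0.13; difference 0.75 ± 0.18, adjusted p = 0.00572). TYMS, which makes thymidylate, was at 12.3, 15.9 and 15.2 against 6.26, 6.20 and 7.29 CPM (-1.14 ± 0.17; difference 1.43 ± 0.23, adjusted p = 0.000179). TOP2A, a topoisomerase of dividing cells, was at 11.2, 11.5 and 13.2 against 2.21, 1.34 and 1.79 CPM (-2.74 ± 0.21; difference 1.59 ± 0.30, adjusted p = 0.00067). In these 3 genes every senescent library lay below every control library. TK1, a thymidine kinase of S phase, was at 3.36, 3.79 and 4.52 against 1.63, 1.17 and 2.52 CPM (-1.13 ± 0.24) and at 17.6, 17.5 and 23.9 against 0.37, 0.187 and 0.44 CPM with DMSO (difference 4.71 ± 0.40, adjusted p = 9.91e-08). KIF20A, a kinesin of cytokinesis, was at 2.66, 2.72 and 3.06 against 0.579, 0.727 and 1.01 CPM (-1.86 ± 0.33), and in DMSO at 22.1, 15.05 and 13.98 against 0.123, 0.1245 and 0.0549 CPM (adjusted p of the difference = 6.79e-06). Senescent libraries thus held more TK1 and KIF20A with IMP1088 than with DMSO, and control libraries less. SHCBP1, a signalling adaptor of dividing cells, showed 2.06, 1.96 and 3.11 against 0.789, 0.894 and 1.46 CPM (-1.18 ± 0.35; difference 4.64 ± 0.61, adjusted p = 1.95e-05). KIF2C, a kinesin of centromeres, was at 0.853, 2.36 and 2.72 against 0.842, 0.95 and 0.785 CPM (-1.21 ± 0.44, adjusted p = 0.0181), with 1 control library among the senescent ones. Its call was lost without control IMP1088 replicate 2 (adjusted p = 0.0640) or 3 (0.0922) or senescent IMP1088 replicate 3 (0.0520). MKI67, the proliferation marker Ki-67, was at 3.26, 3.21 and 4.42 CPM in control libraries and at 0, 0 and 0.0561 CPM in senescent ones, at least 22.1-fold lower. Its difference from DMSO did not pass (adjusted p = 0.883), which does not show an equal fall with senescent libraries at the floor.

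Some genes of division changed direction or no longer differed. CDCA2, GTSE1 and SKA3 were picked by the size of their difference from DMSO, so that difference is not a separate result about them. The same holds for CDKN2C, TK1, KIF20A, SHCBP1 and KIF2C above. CDCA2, which brings a phosphatase to chromosomes at anaphase, was higher in senescent cells with IMP1088, at 1.20, 1.11 and 1.41 against 2.10, 2.35 and 3.03 CPM (1.00 ± 0.20, adjusted p = 0.000177), and lower with DMSO, at 6.61, 6.40 and 7.41 against 0.617, 0.498 and 0.604 CPM (-3.55 ± 0.22). GTSE1, a microtubule-binding protein of G2 and S phase, was at 0.903, 1.11 and 1.31 against 1.00, 1.01 and 1.23 CPM with IMP1088 (-0.04 ± 0.31, adjusted p = 0.908), with overlapping groups, and at 7.58, 7.00 and 6.82 against 0.185, 0.747 and 0.33 CPM with DMSO (difference 4.03 ± 0.46, adjusted p = 4.47e-06). SKA3, of the spindle and kinetochore complex, was at 1.00, 1.07 and 0.826 against 0.737, 0.838 and 0.504 CPM (-0.48 ± 0.29, adjusted p = 0.146; difference 3.65 ± 0.43, adjusted p = 6.53e-06). On the 2 lists, 5 replication genes and 5 mitosis genes passed in opposite directions in the 2 treatments. They were CDT1, ORC1, ORC6, FEN1 and RRM1, and AURKB, BUB3, MAD2L1, CENPN and TPX2, each higher in senescent cells with IMP1088 and lower with DMSO. AURKA and AURKB, the mitotic Aurora kinases, were higher with IMP1088 by 1.82 and 1.75, while CDK1, the mitotic kinase (at least 14.2-fold), and MYBL2, a transcription factor of mitotic genes (at least 11.5-fold), were lower.

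**Figure D4:**
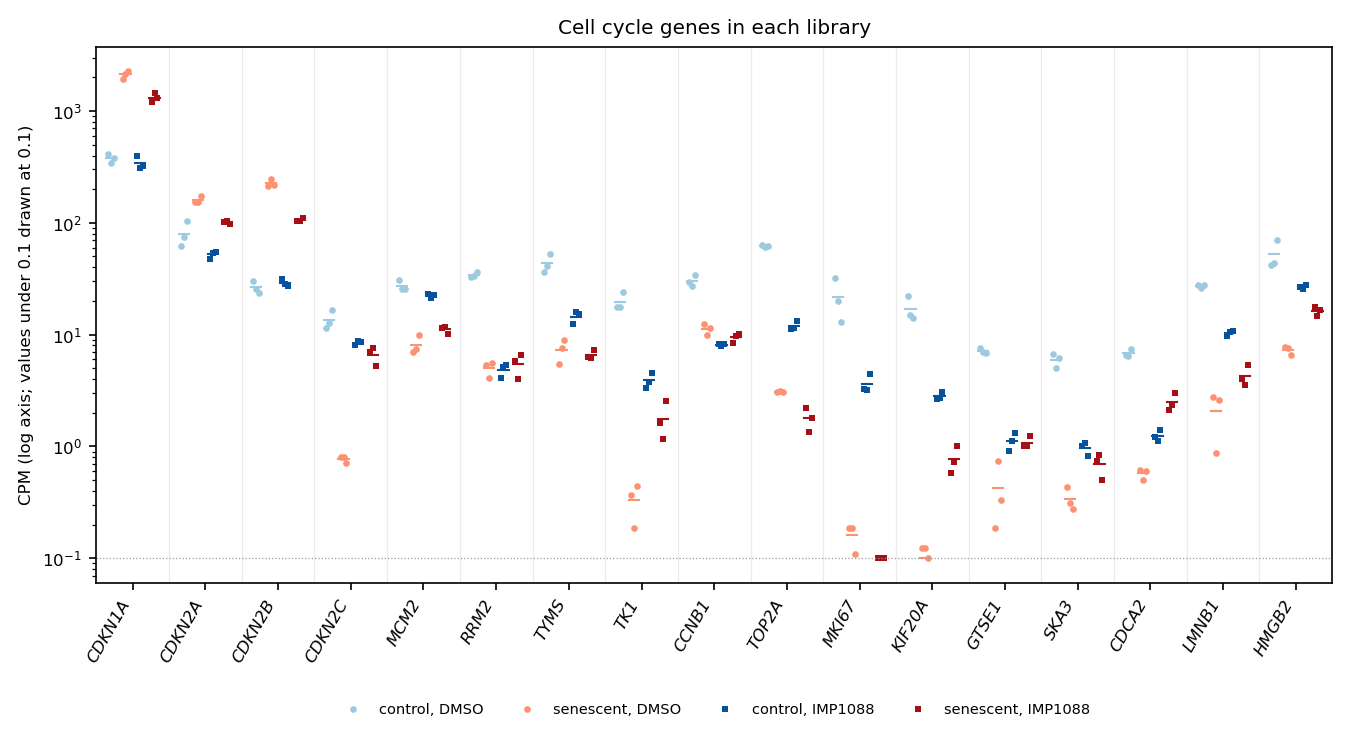
CPM on a log axis of cell cycle genes in each of the 3 libraries of control and senescent cells with DMSO (circles) and with IMP1088 (squares), with short lines at the means. Control libraries with IMP1088 lie below control libraries with DMSO for RRM2, TYMS, TOP2A and CCNB1, and TK1, KIF20A, GTSE1, SKA3 and CDCA2 are higher in senescent libraries with IMP1088 than with DMSO.

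Promoters of mitotic genes are known for the cell cycle gene homology region (CHR), bound by the DREAM and MYBL2 complexes. Its letters TTTGAA occurred, on either strand, in 947 of the 11104 promoters (8.53%), in 14 of 30 promoters of the mitosis list (46.7%) and in 1 of 31 of the replication list (3.23%). It is shown, in capitals, for GTSE1 (chr22:46296824-46296869, plus strand, match on the opposite strand) and for PLK1, a mitotic kinase (chr16:23678840-23678885, plus strand), both chosen after their matches were seen.
GTSE1: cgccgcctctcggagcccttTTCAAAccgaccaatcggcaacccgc
PLK1: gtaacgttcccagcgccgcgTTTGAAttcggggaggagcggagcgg
PLK1 was at 1.61, 2.58 and 2.09 CPM in control libraries and 0.684, 0.447 and 0.448 CPM in senescent ones with IMP1088 (-1.98 ± 0.31), and its difference from DMSO was 2.57 ± 0.48 (adjusted p = 0.000644).

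Of lamina and HMGB genes, some of which are known to be lost in senescence, 1 of the 9 tested were higher and 5 lower. LMNB1, which encodes lamin B1, was at 9.68, 10.6 and 10.7 against 4.00, 3.52 and 5.33 CPM (-1.27 ± 0.27; difference 2.42 ± 0.40, adjusted p = 0.000218). HMGB2, a chromatin protein, was at 26.8, 25.4 and 27.9 against 17.8, 14.6 and 16.6 CPM (-0.71 ± 0.17; difference 2.13 ± 0.24, adjusted p = 4.34e-06). No senescent library reached a control library for either. Of p53 targets, 6 of the 24 tested were higher and 11 lower, with a median of -0.29 (0.05 with DMSO, and -0.11 with upper quartile scaling). MDM2, the ubiquitin ligase of p53, was at 112, 84.9 and 96.8 against 68.6, 62.8 and 73.4 CPM (-0.52 ± 0.13, adjusted p = 0.0016). BTG2, an antiproliferative p53 target, was at 36.1, 29.4 and 23.9 against 5.58, 8.16 and 6.45 CPM (-2.15 ± 0.19), a larger fall than with DMSO (difference -1.17 ± 0.26, adjusted p = 0.00279).

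Of the BCL2 family, which sets the threshold for apoptosis, 10 of the 16 tested were higher and 4 lower. BCL2L1, which encodes BCL-XL, was at 79.8, 78.03 and 84.7 against 129, 139.6 and 139 CPM (0.75 ± 0.08, adjusted p = 5.81e-08), and its log2 fold change with DMSO was 0.75 ± 0.08. BCL2A1, an NF-kappaB target that protects from apoptosis, was at 1.86, 3.38 and 3.25 against 44.1, 44.1 and 47.9 CPM (3.99 ± 0.21; difference -1.31 ± 0.33, adjusted p = 0.00746). PMAIP1, which encodes the proapoptotic NOXA, was at 22.6, 23.2 and 25.5 against 62.6, 65.95 and 60.5 CPM (1.40 ± 0.17). These 3 were higher in every senescent library. BCL2 was lower, at 8.38, 9.44 and 8.79 against 0.579, 0.391 and 0.224 CPM (-4.44 ± 0.28; difference -1.71 ± 0.48, adjusted p = 0.013, and 0.0577 without senescent DMSO replicate 2).

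Of myristoylation enzymes and partners, 1 of the 8 tested were higher and 3 lower. NMT1 was at 176, 156 and 177 against 181, 188 and 177 CPM (0.10 ± 0.08, adjusted p = 0.29), and NMT2 at 18.7, 23.2 and 19.4 against 13.8, 14.8 and 14.8 CPM (-0.50 ± 0.14, adjusted p = 0.00316; difference 0.72 ± 0.20, adjusted p = 0.0102). The inhibitor blocks the enzymes and not their RNA, so these levels do not check the labels. Of ARF GTPases and the COPI coat, 15 of the 25 tested were higher and 3 lower, with a median of 0.36 (0.19 with DMSO). The difference from DMSO passed above 0 for 9 and below 0 for 1, and above 0 for 5 without control DMSO replicate 3. ARF1 was at 478, 449 and 531 against 779, 783 and 773 CPM (0.68 ± 0.09, adjusted p = 6.01e-07), near its value with DMSO (0.70 ± 0.09). COPB2, a coat subunit, was at 476, 429 and 495 against 630.2, 612 and 625 CPM (0.42 ± 0.08, adjusted p = 0.000182), and COPA, another, at 624, 532 and 619 against 684, 722 and 718 CPM (0.26 ± 0.12, adjusted p = 0.0655). ARF4 (1.37) and KDELR3 (1.41), a receptor that returns ER proteins from the Golgi, had the largest log2 fold changes of the list with IMP1088. The difference from DMSO was 1.46 ± 0.18 for ARF4 (adjusted p = 1.08e-05) and 0.87 ± 0.16 for KDELR3 (adjusted p = 0.000717).

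ER chaperones were higher in senescent cells, and some more so than with DMSO. Of the list, 15 of the 24 tested were higher and 2 lower, with the difference from DMSO above 0 for 7 and below for 0 (9 above and 1 below without control DMSO replicate 3). HSPA5, the chaperone BiP (chromosome 9, from 127997132 to 128003661 on GRCh37), was at 1872, 1716 and 2137 against 4822, 4577 and 4544 CPM (1.28 ± 0.15, adjusted p = 1.26e-07). With DMSO it was at 780.4, 860.1 and 825 against 1256, 1165 and 1091 CPM (0.51 ± 0.14), and the difference was 0.77 ± 0.20 (adjusted p = 0.00887). The lowest IMP1088 library thus lay above the highest DMSO library. HSP90B1, the chaperone GRP94, was at 1077, 1074 and 1218 against 2075, 1922 and 1924 CPM (0.81 ± 0.12; difference 0.67 ± 0.16, adjusted p = 0.00553), and MANF, an ER stress-induced secreted factor, at 123, 112 and 143 against 200.2, 198 and 191 CPM (0.64 ± 0.16). Of genes of ER-associated degradation (ERAD), 15 of the 20 tested were higher and 2 lower. HERPUD1, an ERAD scaffold, was at 254, 245 and 277 against 426, 390.1 and 369 CPM (0.61 ± 0.13), and at 83.6, 74.1 and 89.02 against 73.3, 80.2 and 73.2 CPM with DMSO (difference 0.73 ± 0.19, adjusted p = 0.00867). SEL1L, an ERAD adaptor, was at 277, 229.7 and 256 against 234, 228 and 246 CPM (-0.11 ± 0.15, adjusted p = 0.525), with overlapping groups.

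The ER stress response element (ERSE), read by ATF6 with NF-Y, has the letters CCAAT, 9 bases of any kind and CCACG. It occurred on either strand in 14 of the 11104 promoters (0.126%), and 6 of these 14 were among the 22 promoters of the ER chaperone list (27.3%). It is shown in capitals for HSPA5 (chr9:125241371-125241429, minus strand) and HSP90B1 (chr12:103930196-103930359, plus strand), where it occurs 2 times, the second on the opposite strand.
HSPA5: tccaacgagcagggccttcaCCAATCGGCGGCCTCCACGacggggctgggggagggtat
HSP90B1: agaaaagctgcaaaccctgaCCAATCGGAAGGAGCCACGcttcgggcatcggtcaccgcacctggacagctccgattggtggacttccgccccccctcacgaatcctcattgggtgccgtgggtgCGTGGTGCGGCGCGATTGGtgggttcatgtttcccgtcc

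Genes of ATF4 and CHOP, the amino acid and ER stress factors, had 15 of 31 higher and 5 lower. DDIT3, which encodes CHOP, was at 55.2, 42.7 and 47.02 against 94.1, 67.3 and 72.2 CPM (0.69 ± 0.19, adjusted p = 0.00318), and at 14.3, 10.1 and 18.1 against 20.7, 25.8 and 22.7 CPM with DMSO. TRIB3, a pseudokinase induced by CHOP, was at 85.8, 78.4 and 118 against 213, 224 and 217 CPM (1.21 ± 0.18), and at 21.4, 28.2 and 23.2 against 137, 165 and 143 CPM with DMSO (difference -1.40 ± 0.25, adjusted p = 0.000541). Control libraries with IMP1088 stood above control libraries with DMSO for both genes. ATF3, a stress-induced factor, was at 12.3, 12.1 and 21.2 against 25.4, 29.01 and 30.9 CPM (0.91 ± 0.26), and CHAC1, a glutathione-degrading enzyme, at 13.7, 8.51 and 18.5 against 66.9, 58.4 and 57.7 CPM (2.17 ± 0.29). ASNS, the asparagine synthetase, was at 0.452, 0.534 and 0.68 against 1.00, 0.95 and 1.01 CPM (0.82 ± 0.42, adjusted p = 0.0812), a low level with exonic overlap (49.3% of its exonic bases). Of aminoacyl-tRNA synthetases, 16 of the 20 tested were higher and 2 lower. GARS1 was at 251, 235 and 285 against 454, 463 and 449.7 CPM (0.82 ± 0.10), SARS1 at 232, 235 and 257 against 288, 308 and 294 CPM (0.30 ± 0.10, adjusted p = 0.00987, and 0.0750 with upper quartile scaling), and WARS1, which interferon also induces, was lower at 412, 354 and 445 against 256, 269.9 and 264 CPM (-0.62 ± 0.13).

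Genes of the sterol list were higher as a group. Of these, 23 of the 24 tested were higher and 1 lower, with a median of 1.37, and with DMSO the counts were the same and the median 1.87. HMGCS1, of the mevalonate pathway, was at 87.6, 65.2 and 68.8 against 176, 181 and 217 CPM (1.38 ± 0.15). INSIG1, which holds the sterol sensor in the ER, was at 85.1, 59.5 and 46.3 against 319, 258 and 299 CPM (2.20 ± 0.21). All senescent libraries exceeded all control libraries in both genes. The difference from DMSO was below 0 for 10 and above 0 for 1, and below 0 for 4 without control IMP1088 replicate 1. Without control DMSO replicate 3 the difference was below 0 for 8 and above 0 for 1.

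Of lysosomal and V-ATPase genes, 32 of the 56 tested were higher and 9 lower, with a median of 0.54 (0.55 with DMSO). CTSD, the protease cathepsin D, was at 537, 509.7 and 485 against 1011, 1083 and 975 CPM (1.00 ± 0.08), and GLB1, the source of senescence-associated beta-galactosidase activity, at 104, 98.6 and 98.4 against 141, 139 and 133 CPM (0.46 ± 0.09, adjusted p = 0.000156). The difference of GLB1 from DMSO, -0.39 ± 0.13 (adjusted p = 0.03), did not pass in 9 of 12 fits without 1 library each. ATP6V0D2, a V-ATPase subunit, was at 0.0502, 0 and 0.0486 against 37.4, 32.4 and 32.8 CPM, at least 239-fold higher, and at 4.82, 3.80 and 2.80 CPM in senescent libraries with DMSO (adjusted p of the difference = 0.0449). Of autophagy receptors and the LC3 family, 8 of the 13 tested were higher and 2 lower. SQSTM1, the receptor p62, was at 1365, 1321 and 1214 against 3768, 3786 and 3803 CPM (1.54 ± 0.09), and at 712, 664 and 708 against 1341, 1194 and 1394 CPM with DMSO (difference 0.63 ± 0.13, adjusted p = 0.00167). GABARAPL1, a member of the LC3 family, was lower, at 234, 264 and 229 against 119, 131 and 126 CPM (-0.95 ± 0.10).

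Matrix genes of fibroblasts were lower in senescent cells, and collagens more so than with DMSO. Of collagens, 4 of the 26 tested were higher and 19 lower, with a median of -1.66, against 7 higher and 13 lower and a median of -0.33 with DMSO. The difference between the treatments was below 0 for 17 of the 26 and above 0 for 0 (17 below and 1 above without control DMSO replicate 3). COL1A1, a chain of type I collagen, was at 9606, 8219 and 8166 against 750.4, 899 and 845 CPM (-3.38 ± 0.19), and at 8993, 8259 and 5549 against 3338, 3390.3 and 2895 CPM with DMSO (difference -2.14 ± 0.25, adjusted p = 6.67e-06). COL3A1, of type III collagen (chromosome 2, from 189839099 to 189877472 on GRCh37), was at 5515, 5386 and 5529 against 63.2, 84.2 and 64.1 CPM (-6.28 ± 0.20), and at 4210.3, 3883 and 3011 against 291, 346 and 250.5 CPM with DMSO (difference -2.63 ± 0.22, adjusted p = 9.14e-08). Control libraries overlapped between the treatments for COL1A1 and were higher with IMP1088 for COL3A1, and senescent libraries were lower with IMP1088 for both. COL14A1 was at 274, 255 and 237 against 0.105, 0.224 and 0.112 CPM (-10.71 ± 0.29), and COL15A1, a basement membrane collagen, at 106, 91.4 and 97.9 against 0.158, 0.168 and 0.112 CPM, at least 598-fold lower. COL10A1 (7.26), COL7A1 (2.86), COL6A2 (1.15) and COL5A3 (1.10) were the 4 higher members. Of elastic fibre genes, 3 of the 20 tested were higher and 17 lower. FBN1, the microfibril protein fibrillin 1, was at 592, 462 and 437 against 94.9, 121 and 89.8 CPM (-2.29 ± 0.26; difference -1.24 ± 0.35, adjusted p = 0.0146, and 0.0538 without control IMP1088 replicate 1), and FBLN5, which links elastin to cells, at 204, 194 and 192 against 63.8, 66.1 and 69.8 CPM (-1.56 ± 0.10).

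**Figure D5:**
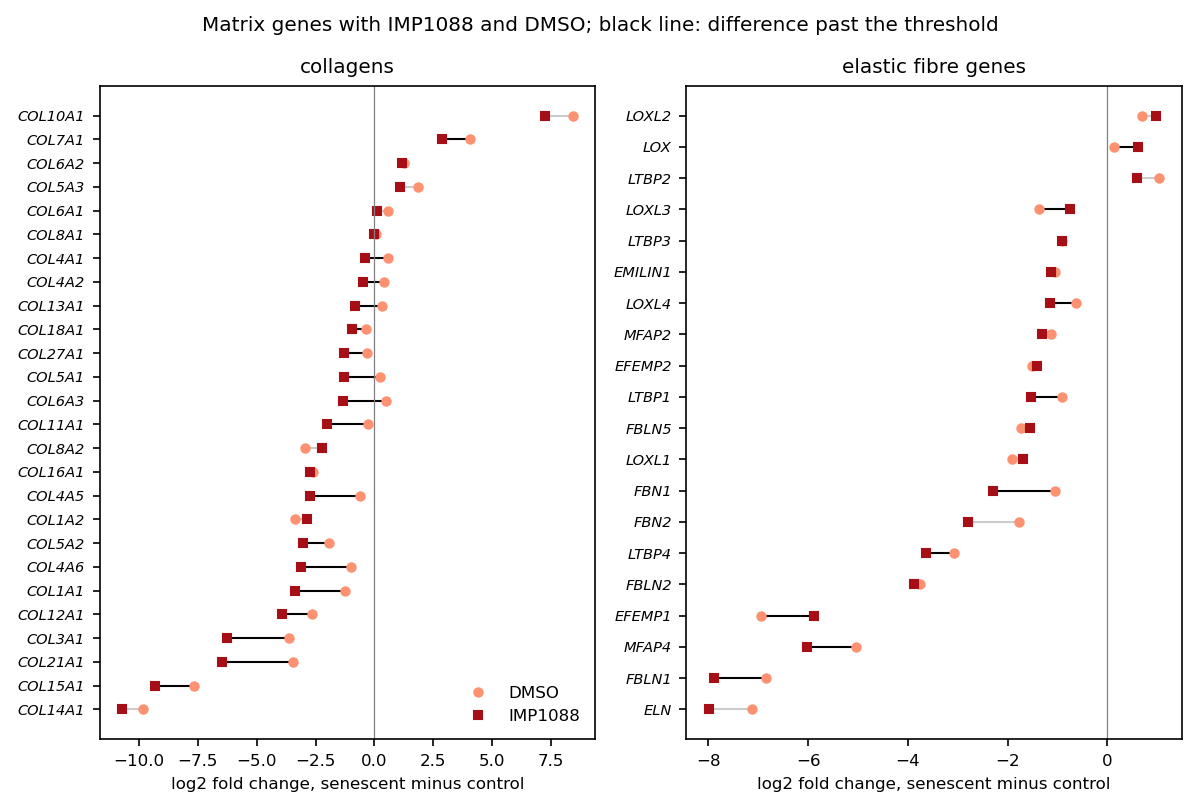
Log2 fold change of senescent over control cells (x axis) for each collagen (left) and elastic fibre gene (right) tested, with DMSO (circles) and IMP1088 (squares), joined by a black line where the difference between the treatments passed the threshold. The IMP1088 value lies to the left of the DMSO value for all 17 collagens with a black line.

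The labelled cell type was checked against its markers. Of the 14 fibroblast markers, 3 of which are collagens, 1 was higher in senescent cells and 10 lower, and their summed level ran from 31081 to 33774 CPM in control libraries and from 11966 to 12238 CPM in senescent ones. VIM, the intermediate filament vimentin, was at 3653, 4123 and 3868 against 9347, 9198 and 9005 CPM (1.24 ± 0.09). DCN, the proteoglycan decorin, was at 2015, 2122 and 2036 against 7.26, 8.55 and 7.34 CPM (-8.06 ± 0.12, adjusted p = 9.06e-21), and the receptors PDGFRA and PDGFRB at 1142, 824 and 788 against 92.6, 86.97 and 99.05 CPM (-3.31 ± 0.19) and 417, 332 and 335 against 113, 111 and 107 CPM (-1.71 ± 0.14). In bulk samples, fewer cells of a type and less RNA per cell cannot be told apart. Of 12 epithelial markers 6 were tested, with 2 higher and 2 lower, and CDH1, KRT5, KRT14, ESRP1, SFTPC and SCGB1A1 lay at or under the floor in all 6 libraries. Their sum was 55.8 to 67.6 CPM in control and 56.2 to 61.2 CPM in senescent libraries. Of 9 endothelial markers 7 were tested, with 5 higher (PECAM1, CDH5, TIE1, CLDN5 and EGFL7) and TEK lower, VWF stood at 3.36, 2.81 and 2.57 against 3.31, 3.86 and 3.87 CPM, and the sum was 38.5 to 47.9 against 73.8 to 88.0 CPM. Of 11 leukocyte markers 3 were tested, CD68, a lysosomal glycoprotein, rose (2.83), CD3E, MS4A1, ITGAM, LYZ and HLA-DRA lay at or under the floor, and the sum was 21.8 to 24.7 against 152 to 165 CPM. The part of these markers in the differences above was not tested.

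Genes induced by interferon were mostly lower in senescent cells. Of the list, 4 of the 31 tested were higher and 23 lower, and without control IMP1088 replicate 1 16 were lower. IFIT1, which binds viral RNA, was at 24.8, 15.01 and 15.3 against 0.842, 0.838 and 0.953 CPM (-4.38 ± 0.29). MX1, an antiviral GTPase, was at 9.03, 3.65 and 3.16 against 2.37, 2.52 and 2.75 CPM (-1.05 ± 0.35, adjusted p = 0.0103), and at -0.42 (adjusted p = 0.217) without control IMP1088 replicate 1. ISG15, a ubiquitin-like protein, was higher, at 25.9, 16.9 and 18.1 against 36.3, 41.4 and 36.04 CPM (0.90 ± 0.22, adjusted p = 0.00119).

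Beyond the lists, the difference between IMP1088 and DMSO fell into several forms. The genes named in this paragraph were picked by the size of that difference, as were CXCL10, INHBE, BMP5, IL34 and ATP6V0D2 above. Of the 3761 genes past the threshold for it, 1165 changed in the same direction and more with IMP1088, 621 in the same direction and less, 1046 passed with IMP1088 and not with DMSO, 643 passed with DMSO and not with IMP1088, 274 changed in opposite directions (1.91% of genes tested) and 12 passed with neither. Among opposite changes, ANKRD1, a target of the YAP coactivator, was at 0.251, 0.624 and 0.389 against 3.05, 8.78 and 6.45 CPM with IMP1088 (3.81 ± 0.41) and 0.766, 1.33 and 2.09 against 0.432, 0.809 and 0.714 CPM with DMSO (-1.06 ± 0.46). CRYAB, a small heat shock protein, was at 2.16, 1.20 and 1.80 against 5.00, 4.14 and 6.73 CPM (1.63 ± 0.32) and 2.50, 2.09 and 2.74 against 0.309, 0.498 and 0.165 CPM with DMSO (-2.91 ± 0.47). ITGBL1, an integrin-like secreted protein, was at 7.53, 5.39 and 7.19 against 12.5, 11.5 and 13.1 CPM (0.89 ± 0.20) and 39.7, 41.00 and 33.8 against 5.43, 3.24 and 3.41 CPM with DMSO (-3.25 ± 0.22), and 70.5% of its exonic bases overlap FGF14. The difference for these 3 was 4.87 ± 0.61, 4.54 ± 0.57 and 4.14 ± 0.30. IL23A, a subunit of interleukin 23, was at 0.1, 0.0891 and 0.0486 against 9.16, 16.3 and 12.00 CPM, at least 87.1-fold higher, and at 0.0403, 0.0402 and 0.199 against 0.247, 0.374 and 0.33 CPM with DMSO (adjusted p of the difference = 0.00632). CCDC30, a coiled-coil protein, was at 0.502, 0.401 and 0.389 against 6.74, 6.09 and 4.88 CPM (3.76 ± 0.34; difference 2.86 ± 0.57, adjusted p = 0.00125). ITGA8, an integrin subunit, was lower with IMP1088, at 5.07, 2.94 and 2.43 against 0.684, 0.727 and 0.28 CPM (-2.60 ± 0.48), and the groups overlapped with DMSO, at 6.33, 2.90 and 2.24 against 6.73, 7.72 and 3.30 CPM (difference -3.21 ± 0.60, adjusted p = 0.000654). CLCA2, of a family of chloride channel regulators, was at 11.04, 12.5 and 11.1 against 0.105, 0.112 and 0 CPM, at least 70.1-fold lower, and at 0.432, 0.436 and 0.549 CPM in senescent libraries with DMSO (adjusted p of the difference = 5.4e-05).

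With DDD86481, the other inhibitor, the senescence difference was close to that with IMP1088, although the doses differed (1.5 µM against 300 nM). Of the 14341 genes, 10616 passed with DDD86481 (74%), 5177 higher (36.1%) and 5439 lower (37.9%). The 4834 genes higher with both were 93% of those higher with IMP1088, and the 5029 lower with both were 92.6%, and the log2 fold changes correlated across genes at an r of 0.972. By edgeR's quasi-likelihood test the difference between the inhibitors passed for 0 genes (0%), with 253 genes at an unadjusted p under 0.05 (1.76%), and by DESeq2 also for 0, with 242. With a replicate block in edgeR 289 genes had an unadjusted p under 0.05. If no gene differed, a share of 0.05 of the genes would lie there. The test was thus conservative here, and the reason was not tested. The size of the difference was under 0.5 on the log2 scale for 89.5% of genes, against 60.6% for IMP1088 minus DMSO. Of the 97 named genes with no group at the floor, 75 had an approximate 95% interval of the difference within 1 log2 unit of 0. The interval was taken as 1.96 of the approximate standard errors on either side. The log2 fold change of IL1B was 11.25 with DDD86481 (difference 0.03 ± 0.25), that of CXCL10 -0.87 (0.44 ± 0.55), that of HSPA5 0.99 (0.29 ± 0.20), that of COL1A1 -3.02 (-0.37 ± 0.25) and that of RRM2 0.06 (0.12 ± 0.25). IL13RA2 had a log2 fold change of 5.01 with DDD86481, a difference of 0.65 ± 0.28, and its interval ran from 0.112 to 1.20, before adjustment over genes. The interval of DCN also left out 0, in the other direction, with a difference of -0.30 ± 0.14 that ran from -0.579 to -0.0307. A difference that did not pass is not a test of equal action.

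Counts of genes that overlap a neighbour are uncertain, because the strand setting of the counting is not given in the sources used here. At least 10% of the exonic bases of 21 of the 118 named genes lie in exons of another gene, among them ASNS, ATP6V0D2, BCL2L1, CDKN2A, CDKN2C, COPB2, CRYAB, CTSD, DDIT3, DUSP6, HMGCS1, HTR2B, INHBE, ITGBL1, MCM2, PDGFRA, PLAU, SERPINB2, SQSTM1, TYMS and VIM, and this also held for PLK1 (11.6%).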

How the data were processed

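The series holds 18 RNA sequencing libraries of IMR90 ER:RAS cells, 3 in each of 6 groups, assigned by their titles. The authors deposited 1 table of raw counts per gene, with whole numbers for 28266 gene rows and no normalisation. The submitters' processing notes name the build hg38, DRAGEN, STAR 2.7.8a and DESeq2 1.32.0, whereas the study's methods describe alignment to hg19 with TopHat 2.0.11 for a strand-specific library and Ensembl version 67 annotation, so the build behind the counts is unsettled and the strand setting of the counting is not given in the sources used here. A wrong or absent strand setting would add reads of overlapping genes. Gene positions and exonic overlap are from GENCODE on GRCh37, and promoters from RefSeq on GRCh38.p14.

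Genes that passed filterByExpr over the 18 libraries (14341 genes, 99.9619% of counts) were scaled by TMM and fitted with edgeR 4.0.16 (R 4.3.3), with 1 mean per group over all 6 groups, glmQLFit and glmQLFTest, and Benjamini-Hochberg adjustment over all genes tested at 0.05. The senescence difference with IMP1088 was the main contrast, those with DMSO and DDD86481 were fitted beside it, and differences between them were tested as contrasts of the same fit. A gene with a group at or under 3 counts in every library has a fold as a lower bound, taken against the floor. Standard errors are the log2 fold change divided by the root of its F statistic. This is an approximation that can be off for large folds. Counts per library ran from 16143716 to 23189950, which sets the floor.

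The members and lists were chosen with earlier results of these data known. Named genes were, among genes past the threshold with a mean of at least 5 CPM in 1 group and excluding antisense, readthrough and uncharacterised symbols, the 8 of largest log2 fold change in each direction with no overlap between the groups, the 4 of largest difference from DMSO in each of 5 classes of change, any past the threshold for IMP1088 against DDD86481 (0), and list members set as examples. Members of lists named outside this rule, such as PLK1, AURKA, AURKB, CDK1, COL10A1, ARF4 and CXCL5, were chosen after their values were seen. Same-numbered control and senescent libraries with IMP1088 deviated with an r between 0.0168 and 0.0325, which does not settle whether the numbers pair them. They did deviate together, with every r over 0.1, between control DMSO and control IMP1088 (0.123 to 0.394), control DDD86481 and control IMP1088 (0.101 to 0.270) and senescent DDD86481 and senescent IMP1088 (0.117 to 0.126), but not between senescent DMSO and senescent IMP1088 (0.0069 to 0.0962), and the tests of the difference were also run with a replicate block, which called 3974 genes against DMSO and 0 against DDD86481. The main script was tested on simulated counts. DESeq2 1.42.0, other scalings and filters, a replicate block and fits without each library were the alternatives. No p-value or fold change of the authors was used. Some genes of the lists are counted but not reported by name here.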

Additional observations from a re-analysis of the deposited data

Results flagged for a closer look

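The senescence difference with IMP1088 differed from that with DMSO, by edgeR's quasi-likelihood test of the difference itself, for 3761 genes, among them the named genes given here, as IMP1088 minus DMSO on the log2 scale. The treatments were 2 arms of 3 libraries per state, and none of the 32 calls lost under another setting changed sign.

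The difference was 4.71 for TK1, 4.64 for SHCBP1, 4.55 for CDCA2, 4.55 for KIF2C, 4.03 for GTSE1, 3.75 for CDKN2C, 3.65 for SKA3, 2.93 for RRM2, 2.42 for LMNB1, 2.13 for HMGB2, 1.64 for CCNB1, 1.59 for TOP2A, 1.43 for TYMS and 0.75 for MCM2. The inhibitors CDKN1A (-0.56) and CDKN2B (-1.23) and the p53 target BTG2 (-1.17) lay below 0.

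Among secreted factors and enzymes, the difference was -4.26 for CXCL10, -0.87 for IL1B, 1.38 for IL6, 3.43 for INHBE, 0.52 for INHBA, -1.66 for AREG, -0.82 for EREG and -1.39 for GDF15. It was 1.03 for MMP1, -2.25 for TIMP3, -2.63 for PLAT, -1.28 for SERPINB2, -1.29 for PTGS2 and 3.02 for PTGES. The NF-kappaB inhibitor gene TNFAIP3 lay at -1.03 and the ERK-induced genes DUSP6 at -0.45, SPRY4 at -1.16 and EGR1 at -1.66, with HRAS at -0.44 and ESR1 at -0.64.

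Of genes of the ER, stress and lysosome, HSPA5 lay at 0.77, HSP90B1 at 0.67, HERPUD1 at 0.73, SQSTM1 at 0.63 and CRYAB at 4.54 above 0 and TRIB3 at -1.40 and GLB1 at -0.39 below. NMT2 lay at 0.72. Of matrix genes and receptors, COL3A1 lay at -2.63, COL1A1 at -2.14, FBN1 at -1.24, ITGA8 at -3.21, PDGFRA at -1.34 and PDGFRB at -0.81, and DCN at 0.56 and ITGBL1 at 4.14. BCL2A1 lay at -1.31, BCL2 at -1.71, ANKRD1 at 4.87 and CCDC30 at 2.86.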

How the results depend on the processing

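Of 1534 refits of the log2 fold changes of the 118 named genes, 1512 kept direction and side of the threshold, 7 lost the call, 15 gained it and 0 reversed. Of 1134 refits of the difference from DMSO in 63 genes, 1102 kept both and 32, in 8 genes, lost the call. Most of these genes had passed in the main fit, and some were chosen for it, so these shares do not describe all genes. Calls gained with IMP1088 were those of IGFBP5, COPA, ASNS and CDKN2C, each in some settings. Against a 2-fold change, 3747 genes passed with IMP1088 (1597 higher and 2150 lower) and 250 for the difference from DMSO (136 above and 114 below). DESeq2 called 10603 genes with IMP1088 and 4184 for the difference. Upper quartile scaling moved the median of all genes by -0.10, split the IMP1088 calls into 4620 higher and 5987 lower and those of the difference from DMSO into 2061 above and 1820 below, and reversed the median of myristoylation enzymes (-0.0027) and of epithelial markers (-0.0622) with IMP1088, and of p53 targets (-0.107) and prostaglandin genes (-0.0124) with DMSO. Leaving out 1 library gave 10070 to 10241 calls with IMP1088, 2738 (without control IMP1088 replicate 1) to 5242 (without control DMSO replicate 1) for the difference from DMSO and 0 to 0 for that from DDD86481. With a replicate block the counts were 10666, 3974 and 0, and 10967 with IMP1088 within its own 6 libraries, although same-numbered control and senescent libraries with IMP1088 did not deviate together. The block changed no count of calls by over 1.5 times. The causes of these shifts were not tested. Levels under 0.168 CPM could not be told from 0, and with 3 libraries per group the p-values rest on spread shared across genes.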

Other observations

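Several list members outside the rule for naming genes moved against or far beyond their list, and their values, chosen after they were seen, are given without explanation. Among interferon-stimulated genes, CMPK2, a mitochondrial nucleotide kinase, was at 0.401, 0.267 and 0.0486 CPM in control and 12.5, 7.66 and 9.42 CPM in senescent libraries with IMP1088 (5.33 ± 0.36, adjusted p = 4.26e-11 by edgeR's quasi-likelihood test), and ISG20, an exonuclease, rose by 2.13, while most of that list was lower. Among elastic fibre genes, ELN, which encodes elastin, was at 20.8, 12.7 and 13.1 against 0.158, 0 and 0 CPM, at least 94.5-fold lower, and FBLN1, a fibulin, was at 1550.3, 1789 and 1789 against 7.63, 6.20 and 7.68 CPM (-7.90 ± 0.15). MFAP4, a microfibril protein, was at 1403, 1284 and 1279 against 16.9, 22.5 and 21.5 CPM (-6.03 ± 0.14; difference from DMSO -0.99 ± 0.16, adjusted p = 0.000183). All 3 were lower in every senescent library. LOX and LOXL2, which crosslink collagen and elastin, were higher, by 0.61 and 0.97. In the lysosome, NPC1, a cholesterol exporter, rose by 3.13, and CTSS, the protease cathepsin S, by 3.72. Among epithelial markers, CLDN4, a tight junction protein, was at 0.753, 0.267 and 0.389 against 12.3, 11.2 and 10.7 CPM (4.60 ± 0.25), and the keratin gene KRT19 at 6.82, 6.32 and 6.65 against 1.47, 0.894 and 1.91 CPM (-2.21 ± 0.27; difference from DMSO 3.24 ± 0.44, adjusted p = 2.97e-05). Of NF-kappaB inhibitors, TNIP1 was at 116, 118 and 128 against 561, 665 and 597 CPM (2.34 ± 0.09), and BIRC3, an NF-kappaB target that blocks cell death, at 2.36, 2.18 and 3.01 against 14.9, 21.8 and 23.2 CPM (2.99 ± 0.24).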
